A study of Homo sapiens with 12 samples.

Results

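The integrated stress response genes examined here are 10 genes: the transcription factor genes ATF4, DDIT3 and ATF3, the feedback and signalling genes PPP1R15A, TRIB3, SESN2 and DDIT4, the enzyme genes CHAC1 and ASNS, and the chaperone gene HSPA5. They were found by gene symbol among the 27514 genes of the deposited expression table, and all 10 were present. The set was chosen by measured values of these samples: DDIT3 was the starting point because its interaction of the knockdowns, from the same CPM values, was already known to be positive. Its values over the 4 groups and the interaction coefficients of all 10 genes are therefore given as descriptions without a test. The other 9 genes were tested in comparisons between groups. All 10 passed the minimum mean of 1 CPM (counts per 1000000 reads of the library) over the 12 samples.

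The samples are IMR32 cells, a human neuroblastoma line with amplified MYCN, which were electroporated with siRNA and grown for 72 h before RNA sequencing. The control group (siCtrl) received a control siRNA. One group received an siRNA against MYCN (siMYCN, labelled siMYCN_2), another an siRNA against HAND2 (siHAND2, labelled siHAND2_3), and the combined group received both. Each group has 3 samples, and the labels do not say whether these were separate cultures, so p-values measure the spread between samples, which may be technical. Every group was electroporated and carries an siRNA, and all results come from 1 line and 1 coded siRNA per target.

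The integrated stress response is a pathway in which kinases that sense amino acid shortage, endoplasmic reticulum (ER) stress, viral RNA or heme shortage phosphorylate the translation factor eIF2. General translation then slows, while the ATF4 message is translated better, so ATF4 protein can rise without more ATF4 mRNA. ATF4 activates genes for amino acid supply and further regulators, among them DDIT3 (CHOP) and ATF3, and PPP1R15A (GADD34) closes the loop by directing dephosphorylation of eIF2. HSPA5 (BiP) is the main HSP70 chaperone of the ER and a marker of the neighbouring ATF6 and IRE1 branches of the unfolded protein response. RNA sequencing shows mRNA levels and not eIF2 phosphorylation or ATF4 protein.

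Depth estimated from the smallest step between CPM values was 31.6 to 64.2 M reads per sample. Listed genes took 65.1% ± 0.74 (SD, n = 3) of the reads of the siCtrl samples. This share was 62.4% ± 0.98 after MYCN knockdown, 59.4% ± 2.39 after HAND2 knockdown and 51.4% ± 7.04 after both, with the combined samples between 44.3 and 58.4% (exact permutation p 0.1 for each knockdown against siCtrl, the smallest that 3 against 3 samples allow). Because CPM is scaled to all reads, a lower share pulls down every listed gene. Each result is therefore given as deposited and, where this changes it, after median-ratio rescaling, which sets the scale of a sample by how its typical gene compares with the average sample (genes with a mean of at least 5 CPM). Rescaling moved the median difference of all genes from siCtrl in the combined group from −0.28 to 0.04 on the log2 scale. As targeted, MYCN mRNA stood at 67.5% of its siCtrl mean in siMYCN and 47.7% in the combined group, and HAND2 at 26.02% in siHAND2 and 30.7% in the combined group. After rescaling MYCN was at 68.02% in siMYCN and 60.99% in the combined group, and HAND2 at 29.1% in siHAND2 and 39.2% in the combined group. HAND2 mRNA rose in siMYCN, to 136% of siCtrl (log2 difference 0.44, limma adjusted p 0.00618). Of 9 neuroblastoma markers 7 were at 1 CPM or more in every sample, and TH and DBH were not. Of 8 markers of other cell types, 7 stayed under 1 CPM in every sample, with COL1A1 the exception at 7.90 CPM in siCtrl and 0.781 in the combined group. The summed level of those 8 markers was mostly COL1A1 in each group. It ranged from 6.87 to 8.73 CPM in siCtrl and from 6.05 to 6.81 in siMYCN. In siHAND2 it was 1.36 to 1.96 and in the combined group 0.927 to 1.245. The part of this sum in the results below was not tested.

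The promoters were examined first, to show which members carry the DNA motifs through which the pathway is known to act. RefSeq promoter windows (GRCh38.p14, 250 bases before to 50 after the start) matched all 10 genes, with 16 windows because some genes have several starts. Motifs were searched on both strands. A gene counts as holding a motif if any of its windows does, while the background is a share of windows. These are unlike measures, since a gene with several windows has more chances of a match. The C/EBP-ATF response element, to which ATF4 binds with C/EBP partners, was searched as TGATGNAAN and was present in 3 of the 10 genes (ASNS, ATF3 and CHAC1), against 3.61% of all 35116 windows. The cAMP response element TGACGTCA was in PPP1R15A alone (1.85% of windows), the AP-1 site TGACTCA in DDIT3 alone (4.95%), and the ER stress response element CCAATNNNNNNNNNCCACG in HSPA5 alone (0.0769%). The E-box CACGTG, a sequence bound by MYC family proteins, was in ATF4 alone (7.26%). The looser E-box CANNTG, which contains it, was in 68.7% of all windows and 7 of the 10 genes. TRIB3, SESN2 and DDIT4 had none of the 5 stricter motifs in these windows. The 7 stretches that hold a motif are shown 5′ to 3′ on the gene's strand, upstream of the start, with the motif in capitals. In CHAC1 the capitals are the element read on the opposite strand.
DDIT3 (chr12:57520694-57520764, minus strand): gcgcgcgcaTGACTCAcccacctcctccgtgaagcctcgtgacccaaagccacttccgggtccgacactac
ATF3 (chr1:212565161-212565279, plus strand): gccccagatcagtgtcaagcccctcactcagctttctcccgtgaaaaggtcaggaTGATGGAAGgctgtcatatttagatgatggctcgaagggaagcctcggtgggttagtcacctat
CHAC1 (chr15:40953221-40953324, plus strand): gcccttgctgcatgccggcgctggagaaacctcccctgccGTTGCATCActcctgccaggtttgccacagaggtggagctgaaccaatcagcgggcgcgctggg
ASNS (chr7:97872413-97872531, minus strand): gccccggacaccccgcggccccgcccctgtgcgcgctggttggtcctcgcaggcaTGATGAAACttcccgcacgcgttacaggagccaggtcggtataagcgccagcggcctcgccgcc
PPP1R15A (chr19:48872308-48872420, plus strand): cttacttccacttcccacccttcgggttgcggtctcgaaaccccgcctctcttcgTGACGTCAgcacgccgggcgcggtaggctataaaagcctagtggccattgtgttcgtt
HSPA5 (chr9:125241344-125241464, minus strand): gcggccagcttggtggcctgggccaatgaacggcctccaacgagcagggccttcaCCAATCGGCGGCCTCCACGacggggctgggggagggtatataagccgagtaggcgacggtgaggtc
ATF4 (chr22:39520422-39520537, plus strand): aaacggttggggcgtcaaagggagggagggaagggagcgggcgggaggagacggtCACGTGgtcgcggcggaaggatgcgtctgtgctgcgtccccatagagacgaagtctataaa
A match is a description of letters, and binding at these places was not measured.

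**Figure D1:**
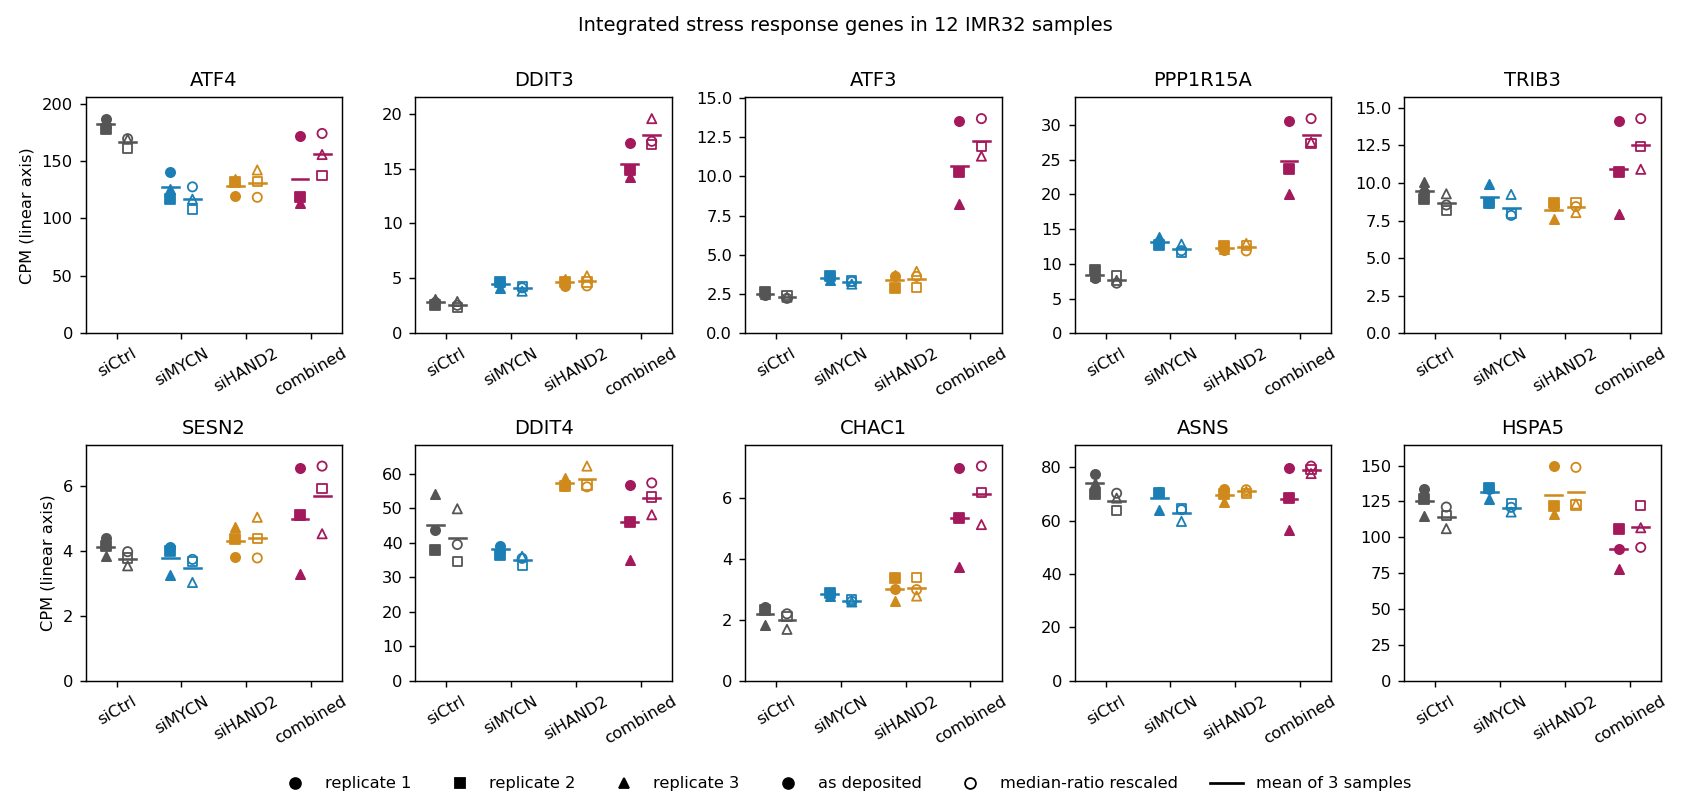
CPM of each of the 10 genes in all 12 samples on linear axes that start at 0, as deposited (filled) and after median-ratio rescaling (open), with the marker shape giving the replicate number and a bar the mean of 3 samples. DDIT3, by which the set was chosen, and ATF3, PPP1R15A and CHAC1 have every combined sample above every sample of the other groups. As deposited, 16.7% of all genes lay wholly above siCtrl in the combined group, 9.47% above siMYCN and 9.6% above siHAND2. The share above all of these groups together was not computed. ATF4 is lower in the single knockdowns than in siCtrl.

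ATF4 encodes the central activator of the response, and its mRNA was lower after each single knockdown. The siCtrl samples had 186.9, 177.5 and 183.4 CPM (replicates 1, 2 and 3), against 140.6, 117.3 and 125.4 in siMYCN and 119.1, 131.5 and 134.0 in siHAND2. None of the 6 single knockdown samples reached the siCtrl range. ATF4 fell by 0.52 on the log2(CPM + 1) scale in siMYCN (SE 0.13, limma adjusted p 0.00389) and by 0.51 in siHAND2 (SE 0.13, limma adjusted p 0.00319), and it fell after rescaling too (log2 differences of −0.51 and −0.35). Without a filter on low genes the siMYCN call was lost (limma adjusted p 0.0529). In bulk RNA, less ATF4 mRNA per cell and fewer cells with ATF4 mRNA cannot be told apart.

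In the combined knockdown the ATF4 samples spread widely, at 172.1, 118.8 and 113.3 CPM. All lay below siCtrl as deposited, and the difference was −0.46 (SE 0.13, limma adjusted p 0.00361). After rescaling they stood at 174.0, 137.4 and 155.6 against 161.3 to 169.4 in siCtrl, the groups overlapped, and the difference of −0.10 was not called (limma adjusted p 0.308). After rescaling ATF4 was also higher in the combined group than in siMYCN (0.40, limma adjusted p 0.0014) and siHAND2 (0.25, limma adjusted p 0.0312), differences that were 0.05 and 0.05 as deposited and not called. The second of these calls was lost when combined replicate 1 or 3 was also left out (limma adjusted p 0.127 and 0.0587). So ATF4 was called lower in the single knockdowns on either scale, and the call for the combined group against siCtrl depended on the scale.

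DDIT3 (CHOP), a bZIP factor known as a late, pro-apoptotic arm of the response, had the largest ratio of combined to siCtrl mean among the 10 genes. Its siCtrl samples had 2.81, 2.58 and 3.14 CPM. Those of siMYCN had 4.56, 4.67 and 4.12, those of siHAND2 4.34, 4.65 and 4.93, and the combined samples 17.3, 14.8 and 14.2. As deposited the single knockdowns overlapped each other. After rescaling siHAND2 lay wholly above siMYCN (4.31 to 5.23 against 3.83 to 4.29 CPM). On both scales the single knockdowns lay wholly above siCtrl, and the lowest combined sample was far above the highest of either. The mean in the combined group was 5.44 times that in siCtrl as deposited and 6.97 times after rescaling. If the ratios of the single knockdowns to siCtrl were multiplied, the product would be 7.26 CPM, and the combined mean of 15.5 was 2.13 times that (2.42 times after rescaling). The gene overlaps MARS on the other strand, and whether counting used strand is not given in the sources used here. MARS reads went the other way, from 156 CPM in siCtrl to 95.6 in the combined group.

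ATF3, another stress-induced bZIP factor, had a pattern close to that of DDIT3 in a gene that did not choose the set. It stood at 2.45, 2.65 and 2.49 CPM in siCtrl, 3.64, 3.63 and 3.36 in siMYCN and 3.64, 2.88 and 3.71 in siHAND2. In the combined group it reached 13.5, 10.3 and 8.21. Every combined sample lay above all 9 others. Of all genes, 16.7% had the combined samples wholly above siCtrl, 9.47% above siMYCN and 9.6% above siHAND2, each group taken alone. ATF3 rose by 1.70 in the combined group against siCtrl (SE 0.13, limma adjusted p 3.28e-11), by 1.34 against siMYCN and by 1.38 against siHAND2 (limma adjusted p 6.06e-09 and 4.95e-08). The single knockdowns were small beside this: 0.36 in siMYCN (limma adjusted p 0.0371) and 0.32 in siHAND2 (limma adjusted p 0.0582, and 0.00214 after rescaling). The siMYCN call was lost when any siCtrl or siMYCN sample was left out (limma adjusted p up to 0.182 over all alternatives). Over the 12 samples ATF3 had the highest Pearson correlation with DDIT3 on the log2(CPM + 1) scale among 10191 genes with a mean of at least 5 CPM (r = 0.98), and PPP1R15A ranked 3 (r = 0.96). ATF3 passed that minimum only through its combined samples. CHAC1, below the minimum, had r = 0.91, while TRIB3 and SESN2 had 0.45, DDIT4 0.05, ASNS −0.24, ATF4 −0.36 and HSPA5 −0.80. These correlations describe 4 groups that share depth and scale, use the DDIT3 values that chose the set, and support nothing further, so no p is given.

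PPP1R15A (GADD34), the inducible subunit that brings a phosphatase to eIF2, rose in every knockdown. The siCtrl samples had 7.96, 9.13 and 8.26 CPM, those of siMYCN 13.1, 12.7 and 13.8, those of siHAND2 11.9, 12.6 and 12.2, and those of the combined group 30.6, 23.7 and 20.04. The single knockdowns formed a step between siCtrl and the combined group, with no overlap on either side. Of all genes, 31.4% lay wholly above siCtrl in siMYCN and 17.8% in siHAND2. The shares for the combined group are those given for ATF3. The log2 rises against siCtrl were 0.59 in siMYCN (SE 0.12, limma adjusted p 5.42e-04), 0.49 in siHAND2 (SE 0.12, limma adjusted p 0.00234) and 1.43 in the combined group (SE 0.12, limma adjusted p 1.57e-10). Against the single knockdowns the combined group was higher by 0.84 and 0.94 (limma adjusted p 2.87e-06 and 1.85e-06). All 5 calls held in each of the 23 alternative analyses run.

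TRIB3, a pseudokinase induced by ATF4 and DDIT3 that damps AKT and ATF4 activity, differed little as deposited. Its siCtrl samples had 9.42, 8.97 and 10.1 CPM, and its combined samples 14.1, 10.7 and 7.95. Levels were 8.65, 8.67 and 9.93 with siMYCN and 8.48, 8.65 and 7.57 with siHAND2. The combined samples straddled the siCtrl range, and the difference of 0.16 (SE 0.14) was not called (limma adjusted p 0.32, 95% interval −0.13 to 0.44). After rescaling the combined samples were 14.3, 12.4 and 10.9, all above the siCtrl samples of 8.15 to 9.28 (as for 37.4% of all genes), and the rise of 0.48 was called (limma adjusted p 3.28e-04). The deposited difference was −0.03 without combined replicate 1 and 0.35 without combined replicate 3, where it was called (limma adjusted p 0.00997).

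SESN2, a sestrin that restrains mTORC1 when leucine is short, showed the same dependence on scale. It stood at 4.38, 4.15 and 3.83 CPM in siCtrl and at 6.53, 5.10 and 3.29 in the combined group. The log2 difference was 0.19 as deposited (limma adjusted p 0.27) and 0.48 after rescaling (limma adjusted p 0.00285). The deposited difference was 3e-04 without combined replicate 1 and 0.41 without combined replicate 3, where it was called (limma adjusted p 0.00659). In the single knockdowns it was −0.10 in siMYCN and 0.05 in siHAND2, neither of them called on either scale.

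DDIT4 (REDD1), an inhibitor of mTORC1 upstream of the TSC complex, was the member called different between the single knockdowns as deposited. Samples of siCtrl had 43.5, 37.95 and 54.1 CPM, those of siMYCN 39.1, 36.3 and 38.7, and those of siHAND2 56.5, 56.5 and 58.6. The siHAND2 samples lay above all others of these 3 groups, and siMYCN was lower than siHAND2 by 0.58 (SE 0.14, limma adjusted p 0.00233, and 0.0584 with no filter on low genes). The rise against siCtrl in siHAND2 was 0.35 (limma adjusted p 0.0476), and 11 of 23 alternatives lost that call, namely those with no filter, no trend, or without siCtrl replicate 1 or 2, any siMYCN sample, any siHAND2 sample or combined replicate 2 (limma adjusted p up to 0.254). After rescaling it was 0.50 (limma adjusted p 0.00103). In the combined group the level was 56.7, 46.0 and 35.0 CPM, a difference from siCtrl of 0.01 that was not called, and 0.36 after rescaling (limma adjusted p 0.0062). The rescaled samples still overlapped, at 48.1 to 57.3 CPM in the combined group and 34.5 to 49.8 in siCtrl.

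CHAC1, an enzyme that breaks down glutathione and is a known ATF4 target, rose in the combined knockdown. The siCtrl samples had 2.42, 2.33 and 1.83 CPM and the combined samples 6.97, 5.34 and 3.73. With siMYCN they had 2.88, 2.89 and 2.78, and with siHAND2 3.01, 3.38 and 2.62. Every combined sample lay above all 9 others, though the lowest combined sample was close to the highest siHAND2 sample. The shares of all genes wholly above each group are those given for ATF3. The rise was 0.96 against siCtrl (SE 0.14, limma adjusted p 2.13e-06), 0.69 against siMYCN (limma adjusted p 2.69e-04) and 0.64 against siHAND2 (limma adjusted p 0.0011). The single knockdowns differed from siCtrl by 0.27 and 0.33, which were not called as deposited (limma adjusted p 0.152 and 0.0702). The siMYCN difference was called in 5 of 22 alternatives: with only the compared groups, with rescaling to the listed genes, and with median-ratio rescaling joined to the replicate block (limma adjusted p 0.0268, against 0.0531 without the block) or to leaving out combined replicate 1 or 3. The siHAND2 difference was called after rescaling (0.44, limma adjusted p 0.00426).

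ASNS, which makes asparagine, has the element in the promoter stretch shown above, as CHAC1 does, but its level stayed near that of siCtrl. The samples ranged from 70.1 to 77.5 CPM in siCtrl and from 56.5 to 79.6 in the combined group, with 64.2 to 70.7 after siMYCN and 66.9 to 72.0 after siHAND2. The combined difference was −0.13 as deposited (limma adjusted p 0.346, 95% interval −0.37 to 0.12). After rescaling its sign turned, to 0.23 (limma adjusted p 0.00137), with the 3 combined samples between 77.6 and 80.4. On neither scale was it near the rise of CHAC1.

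HSPA5 was the member that was lower in the combined group than in every other group as deposited. The combined samples had 92.0, 105.6 and 77.6 CPM and the siCtrl samples 133.6, 126.6 and 115.0. With siMYCN the level was 133.3, 134.6 and 126.4, and with siHAND2 149.6, 122.0 and 116.2. The combined samples were the 3 lowest of the 12. Of all genes, 48.3% lay wholly below siCtrl in the combined group, 49.6% below siMYCN and 30.8% below siHAND2. HSPA5 fell by 0.45 against siCtrl (SE 0.13, limma adjusted p 0.00268), by 0.52 against siMYCN (limma adjusted p 9.65e-04) and by 0.49 against siHAND2 (limma adjusted p 0.00289). After rescaling the difference from siCtrl was −0.09 (limma adjusted p 0.382) and that from siMYCN −0.18 (limma adjusted p 0.121), neither called. The fall against siHAND2 remained called at −0.29 (limma adjusted p 0.0179), but not when combined replicate 1 was also left out (−0.20, limma adjusted p 0.0784).

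**Figure D2:**
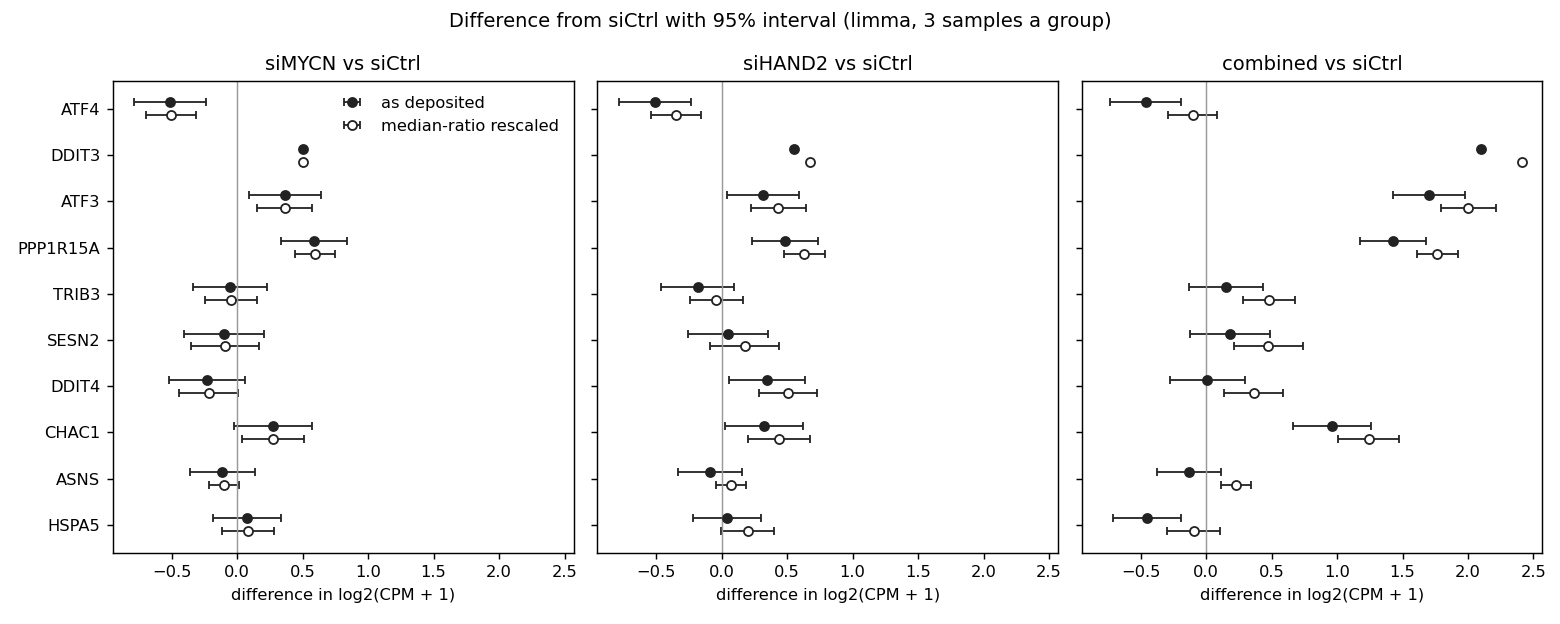
Difference of each gene from siCtrl on the log2(CPM + 1) scale, 1 panel per knockdown, as deposited (filled) and after median-ratio rescaling (open), with 95% limma intervals; DDIT3 is shown without an interval because it was not tested. Rescaling moves the combined values to the right, so that ATF4 and HSPA5 come near 0 (−0.10 and −0.09) while ATF3, PPP1R15A and CHAC1 stay high.

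Counted over the 9 tested genes, siMYCN had 2 higher (ATF3 and PPP1R15A) and 1 lower (ATF4), where 17.4% of all 12680 genes tested were called higher and 16.3% lower. The siHAND2 group had 2 higher (PPP1R15A and DDIT4) and 1 lower (ATF4), against 12.3% and 30.4% of all genes. The combined group had 3 higher (ATF3, PPP1R15A and CHAC1) and 2 lower (ATF4 and HSPA5), against 17.4% and 50.1%. By samples alone, 3 of the 9 genes lay wholly above siCtrl in siMYCN and 1 wholly below (31.4% and 29.6% of all genes). In siHAND2 4 lay above and 2 below (17.8% and 45%), and in the combined group 3 above and 2 below (16.7% and 48.3%). The median difference of the 9 genes in the combined group was 0.16, and that of all genes was −0.28. These are small counts, and in siMYCN they are near the background.

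After rescaling the combined group had 7 of the 9 genes higher and 0 lower, against 37.7% and 33% of all genes. The 2 that were not called were ATF4 and HSPA5, and DDIT4 was called although its samples overlapped those of siCtrl. The median difference was then 0.48 for the 9 genes and 0.04 for all genes. In siHAND2 the rescaled count was 4 higher and 1 lower (25.9% and 24.9% of all genes), and in siMYCN it stayed at 2 and 1 (25.4% and 22.5%). Removing combined replicate 1 or 3 from the rescaled fit left the combined count at 7 of 9.

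Against the single knockdowns directly, the combined group had 3 higher and 1 lower gene in each comparison, the same 4 genes: ATF3, PPP1R15A and CHAC1 higher and HSPA5 lower. Of all genes 8.92% were higher and 50% lower against siMYCN, and 8.75% higher and 31.5% lower against siHAND2. The samples of these 4 genes did not overlap either, where 9.47% of all genes lay wholly above and 49.6% wholly below siMYCN, and 9.6% above and 30.8% below siHAND2. After rescaling 8 of the 9 were higher than in siMYCN, with HSPA5 the exception, and 0 were lower (30% and 26.6% of all genes). Against siHAND2 6 were then higher and HSPA5 lower (26.1% and 23.6%), and without combined replicate 1 this count of 7 was 4. Between the single knockdowns only DDIT4 of the 9 differed, lower in siMYCN (8.98% of all genes, with 26.1% higher); by samples alone 1 of the 9 genes (DDIT4) lay wholly above siMYCN in siHAND2 and 2 (PPP1R15A and TRIB3) wholly below, against 15.7% and 44.9% of all genes. After rescaling ASNS was lower as well, by 0.18 (limma adjusted p 0.0146, with 22.2% of all genes lower and 22.4% higher). A difference that was not called is not shown to be absent: the 95% interval for SESN2 between the single knockdowns ran from −0.45 to 0.16.

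The interaction coefficient is the combined difference minus the sum of the single differences on the log2(CPM + 1) scale, and 0 means that the single effects add up. It was 1.04 for DDIT3 (SE 0.16) and 1.02 for ATF3 (SE 0.19), followed by ATF4 at 0.56 (SE 0.19). TRIB3 at 0.40 (SE 0.19), CHAC1 at 0.36 (SE 0.20), PPP1R15A at 0.35 (SE 0.17) and SESN2 at 0.24 (SE 0.21) were smaller relative to their SE. Leaving out 1 sample at a time moved them from 0.21 to 0.59 for TRIB3, 0.18 to 0.56 for CHAC1, 0.19 to 0.49 for PPP1R15A and 0.055 to 0.46 for SESN2, and ATF4 from 0.37 to 0.67. ASNS was at 0.07 (SE 0.17), DDIT4 at −0.11 (SE 0.20) and HSPA5 at −0.57 (SE 0.18). For ATF4 the positive value arises because each single knockdown was lower than siCtrl and the combined group was no lower still. In CPM, multiplying the single ratios gives 89.7 CPM for ATF4 and 4.78 CPM for ATF3, where 135 and 10.7 were measured. After rescaling the coefficients were 1.23 for DDIT3, 1.21 for ATF3, 0.75 for ATF4, 0.57 for TRIB3, 0.54 for PPP1R15A, 0.53 for CHAC1, 0.39 for SESN2, 0.26 for ASNS (SE 0.07), 0.08 for DDIT4 and −0.38 for HSPA5. On that scale the coefficient of DDIT4 was the nearest to 0. These values describe the contrast by which DDIT3 was picked and were not tested.

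A measure that no scaling of the samples can alter is the ratio of a gene to ATF4 in the same sample, here relative to the siCtrl mean of that ratio. Among the combined samples this was 6.46, 8.04 and 8.08 for DDIT3, 5.66, 6.23 and 5.23 for ATF3, 3.83, 4.30 and 3.82 for PPP1R15A, and 3.37, 3.74 and 2.74 for CHAC1. For these 4 genes it was between 1.58 and 2.56 in the samples of the single knockdowns, with the siCtrl samples between 0.830 and 1.11. The other 5 genes had higher mean ratios in the single knockdowns than in siCtrl as well, with samples from 1.09 for TRIB3 to 1.92 for DDIT4, the latter in siHAND2. As deposited, ATF4 itself stood at 70.0% of its siCtrl mean with siMYCN and 70.2% with siHAND2. A gene whose CPM held level would therefore have a raised ratio there. Of these 5 genes only DDIT4 was called higher than siCtrl in a single knockdown, namely siHAND2, on either scale. In the combined knockdown those 5 genes stayed below the 4 genes named first. Their samples had 1.35 to 1.74 for TRIB3, 1.29 to 1.90 for SESN2, 1.25 to 1.57 for DDIT4, 1.14 to 1.42 for ASNS and 0.780 to 1.30 for HSPA5. So DDIT3, ATF3, PPP1R15A and CHAC1 had higher ratios to ATF4 there than the other members, and HSPA5 stood around its siCtrl ratio. The choice of this ratio was made after the values were seen, and it shows unequal change only.

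**Figure D3:**
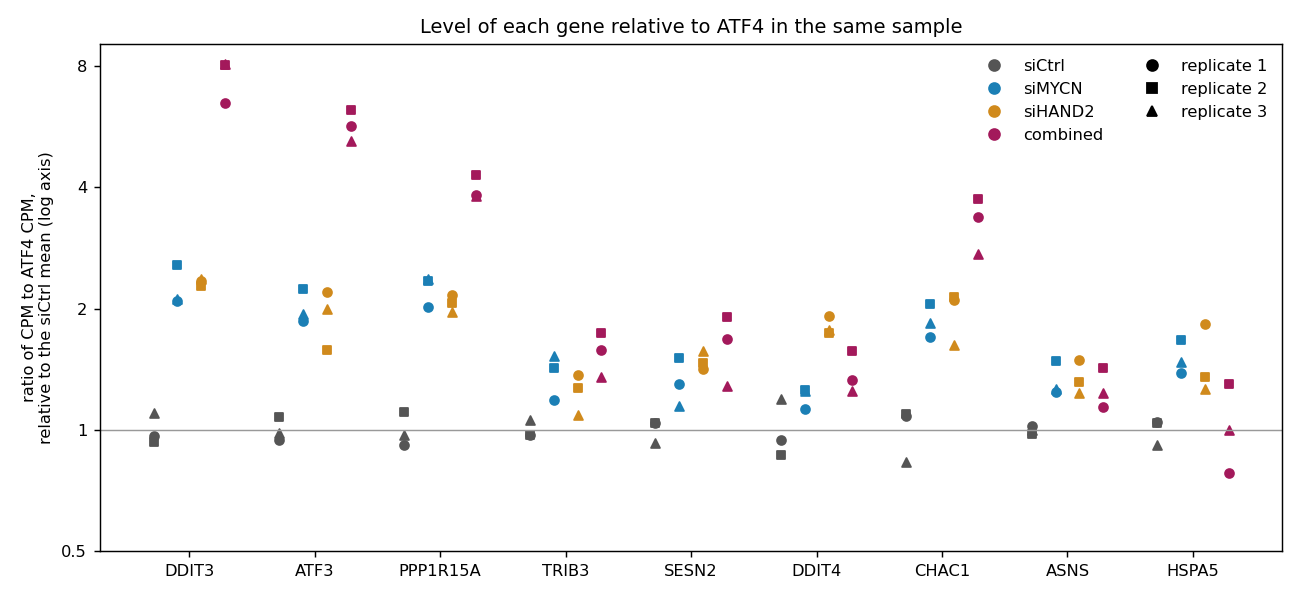
Ratio of the CPM of each gene to that of ATF4 in the same sample, relative to the siCtrl mean, on a log axis, with colour for the group and marker shape for the replicate number. The combined samples of DDIT3 are at 6.46 to 8.08, ATF3 at 5.23 to 6.23, PPP1R15A at 3.82 to 4.30 and CHAC1 at 2.74 to 3.74, and the other genes are below 2 there.

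Samples of the combined group were uneven. Replicate 1 was the highest of the 3 for 9 of the 10 genes, and replicate 3 the lowest for all 10, which is the order of their shares of reads in listed genes (58.4%, 51.4% and 44.3%). The coefficient of variation among these 3 samples fell from 16.9% to 1.77% for ASNS, from 21.6% to 6.99% for PPP1R15A and from 25.1% to 10.1% for ATF3 when rescaled. For HSPA5 it went from 15.2% to 13.6%. After rescaling replicate 1 was still the highest for 8 of the 10 genes and replicate 3 the lowest for 6, so the spread narrowed more than the order changed.

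Per length, in CPM per kilobase of annotated exon (GENCODE, GRCh37), the mRNA levels of the members in siCtrl ran from ATF4 at 69.9 ± 1.82 (SD, n = 3) through DDIT4 at 22.0 ± 3.97, HSPA5 at 19.2 ± 1.43 and ASNS at 15.1 ± 0.760 to TRIB3 at 2.88 ± 0.169, PPP1R15A at 2.46 ± 0.177, DDIT3 at 2.17 ± 0.215, SESN2 at 1.19 ± 0.079, CHAC1 at 1.07 ± 0.155 and ATF3 at 0.633 ± 0.026. DDIT4 and HSPA5 lay within their spread of each other, as did PPP1R15A and DDIT3, and SESN2 and CHAC1. The length joins all annotated exons of a gene, so an intron kept in some annotated transcript counts as exon. For HSPA5 its 6530 bases are the whole annotated span of the gene. Its place in this order therefore depends on the length used. In the combined group DDIT3 reached 11.8 ± 1.24 and PPP1R15A 7.21 ± 1.56, while ATF3 and CHAC1, at 2.67 ± 0.670 and 2.61 ± 0.789, remained scarce. In hg19 coordinates the deposited table places DDIT3 at chr12:57910371-57914301 (minus strand), ATF3 at chr1:212738676-212794120, PPP1R15A at chr19:49375649-49379320 and CHAC1 at chr15:41245347-41248718 (plus strand). The genes with the largest relative rises were thus among the 6 with the lowest levels in control cells, where a log2(CPM + 1) difference understates the ratio.

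The rest of the pathway was described through 11 lists of 102 other genes, of which 95 were tested. In the combined group 10 of the 95 were higher and 62 lower (10.5% and 65.3%, against 17.4% and 50.1% of all genes), with a median of −0.57 against −0.28. After rescaling 20 were higher and 53 lower (37.7% and 33% of all genes). In siMYCN 7 were higher and 30 lower (17.4% and 16.3% of all genes), and in siHAND2 5 and 39 (12.3% and 30.4%). The lists were drawn up with earlier results of these data known and were not tested as sets.

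Upstream of ATF4, the mRNAs of the sensors and of eIF2 itself did not rise as deposited. Of the 4 eIF2 kinases 3 were lower in the combined group (2 lower and 1 higher after rescaling). Among all genes 50.1% were lower as deposited, and 33% were lower and 37.7% higher after rescaling. EIF2AK4 (GCN2, the amino acid sensor) was at −0.82 (limma adjusted p 9.83e-07) and EIF2AK2 (PKR) at −0.79. The fourth, EIF2AK3 (PERK, the ER sensor), differed by 0.24 as deposited (limma adjusted p 0.125) and was called higher after rescaling, by 0.59. All 9 genes for eIF2, its exchange factor eIF2B and GCN1 were lower on both scales. Among them EIF2S1, which encodes the phosphorylated subunit, went from 123.4 ± 2.78 CPM in siCtrl to 58.2 ± 10.3, a fall of 1.09 (limma adjusted p 1.41e-08). The catalytic phosphatase subunit gene PPP1CC fell by 0.96, and 3 of the 4 phosphatase genes were lower (3 lower and 1 higher after rescaling).

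Genes of amino acid synthesis that ATF4 is known to activate were mostly lower, unlike CHAC1. Of 12 amino acid synthesis genes 0 were higher and 11 lower in the combined group (10 lower after rescaling), with a list median of −1.02, where 50.1% of all genes were lower (33% after rescaling). PSAT1 and PHGDH, enzymes of serine synthesis, fell by 1.50 and 1.44 (limma adjusted p 5.51e-11 and 8.01e-10), PSAT1 from 60.01 ± 1.66 to 20.7 ± 3.78 CPM. In siMYCN 9 of these 12 genes were lower (16.3% of all genes), and in siHAND2 6 (30.4%). Of 7 tested transporter genes 3 were lower in the combined group, a share under that of all genes, and 2 after rescaling, when the list median was 0.07. The glutamine carrier gene SLC1A5 had the largest fall, at −1.79. In siMYCN 3 transporter genes were lower and 2 higher, where 16.3% of all genes were lower and 17.4% higher. The 2 higher genes were SLC1A4, by 0.61, and SLC38A2, by 0.33 (limma adjusted p 9.5e-04 and 0.0486). ATF5, a bZIP factor close to ATF4 and under similar translational control, was the one gene of its list that rose, by 0.56 (limma adjusted p 5.88e-04), while NFE2L2 and JDP2 fell by 0.60 and 0.55.

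Of 10 tested further ATF4 and DDIT3 targets 4 were higher and 5 lower in the combined group on either scale. As deposited 17.4% of all genes were higher and 50.1% lower, so the lower share is then that of all genes. After rescaling 37.7% of all genes were higher and 33% lower, so the higher share is then near that of all genes. BBC3 (PUMA), a pro-apoptotic BH3-only gene, rose by 1.05 (limma adjusted p 2.79e-07) from 2.27 ± 0.137 to 5.91 ± 1.57 CPM, and NDRG1 rose by 0.88. TNFRSF10B, a death receptor gene that DDIT3 is known to induce, fell by 1.24 (limma adjusted p 2.72e-09) and the tRNA exporter gene XPOT by 1.27. Among the sestrins and mTORC1 regulators 3 of 11 were higher and 4 lower (6 and 4 after rescaling, against 37.7% and 33% of all genes), with TXNIP up by 1.50 and TSC1 up by 0.38, and the GATOR2 genes SEH1L and SEC13 down by 1.31 and 0.68.

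Chaperone lists of the ER and mitochondria held many lower genes, where 50.1% of all genes were lower as deposited and 33% after rescaling. The share of all genes that were higher was 17.4% as deposited and 37.7% after rescaling. Of 18 ER chaperone and degradation genes 2 were higher, HERPUD1 by 0.60 and DNAJB9 by 0.33, and 12 lower as deposited, led by PDIA4 at −1.56 and HSP90B1 (GRP94) at −1.34 (9 lower and 3 higher after rescaling). HSP90B1 went from 418 ± 26.5 CPM in siCtrl to 169 ± 49.9 in the combined group. The 7 genes of the IRE1 and ATF6 branches had a median difference of −0.14 as deposited and 0.21 after rescaling. On the rescaled values 4 of them were higher (57.1%, against 37.7% of all genes). All 7 genes of the mitochondrial list were lower on both scales, with the chaperonin genes HSPD1 and HSPE1 at −1.77 and −1.56.

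**Figure D4:**
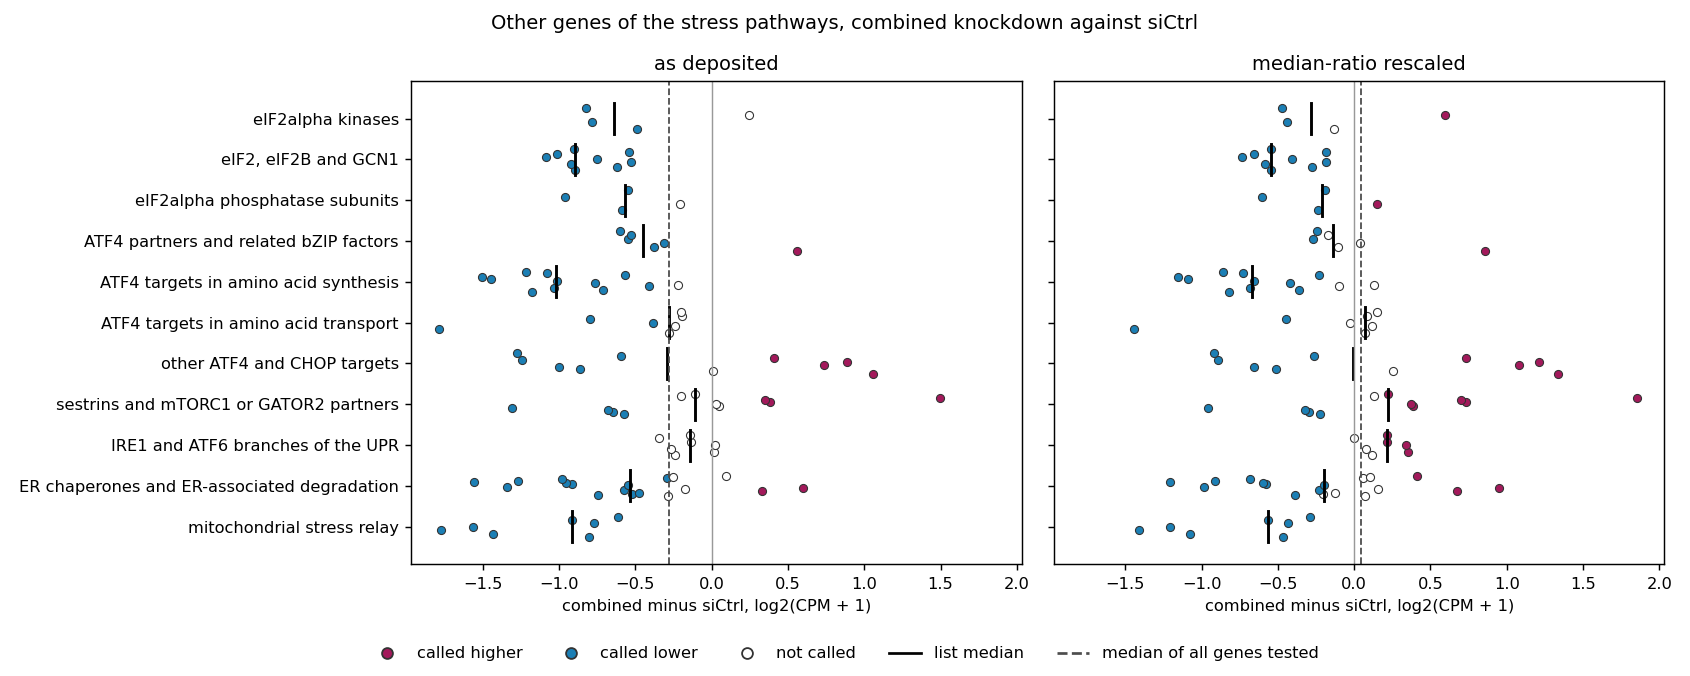
Difference between the combined knockdown and siCtrl on the log2(CPM + 1) scale for each tested gene of the 11 pathway lists, as deposited (left) and after median-ratio rescaling (right); colour gives the limma call, the short bar the list median and the dashed line the median of all genes. The eIF2 list, the amino acid synthesis list and the mitochondrial list lie to the left in both panels.

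By the rule of highest correlation with DDIT3 over the 12 samples, the nearest genes that are not members were ANKFN1 (r = 0.96), SLC4A3 (r = 0.95), ERRFI1 (r = 0.95) and PKD1 (r = 0.95), and 1 more is not reported here. ANKFN1 went from 2.585 ± 0.498 CPM in siCtrl through 4.73 ± 1.02 in siMYCN and 5.78 ± 0.439 in siHAND2 to 16.9 ± 1.55 in the combined group. ERRFI1 went from 6.04 ± 0.582 through 8.33 ± 0.377 and 10.5 ± 0.483 to 18.4 ± 4.54. These genes were selected for likeness in the same samples, and nothing further is drawn from it.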

How the data were processed

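RNA of 12 IMR32 samples was sequenced. Per the submitters' processing notes, reads were aligned with STAR 2.5.1 to hg19 (GRCh37) and Partek was used; the counting tool, use of strand, treatment of reads with several matches, annotation and filters are not given in the sources used here. The deposited values are CPM, to which a constant of 0.0001 had been added by the time the authors deposited them. Divided by the smallest step, 91.1 to 92.6% of values under 20 reads and 82.5 to 84.1% of those from 20 to 200 came out whole (within 0.1 read), so they were not treated as counts. At these depths 3 reads are 0.0468 to 0.0949 CPM, covering counting error only.

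Values were analysed as log2(CPM + 1), which understates fold changes of low genes, for 12680 genes with a mean of at least 1 CPM. The 4 group means were estimated jointly from the 12 samples by limma 3.58.1 (R 4.3.3, eBayes with trend, 8 residual degrees of freedom), in 6 comparisons. A gene is termed called where its two-sided p, adjusted by Benjamini-Hochberg across the 12680 genes, is under 0.05. The fit was tested on simulated data with independent noise per gene and no shift in the scale of a sample. That test therefore cannot show how the fit handles the unequal shares of reads in listed genes. Named genes are the 10 members, MYCN and HAND2, up to the 2 largest rises and falls per pathway list among genes called in the combined group, the genes most correlated with DDIT3, and the markers; EIF2AK3, MARS and the list members described beyond these were chosen after their values were seen. The members and lists were chosen with earlier results of these data known.

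The replicate numbers of the titles are shared by all groups. The deviations of same-numbered samples from their group means were then correlated. For siMYCN with siCtrl every pair was above 0.1 (0.147 to 0.44), as for siMYCN with siHAND2 (0.137 to 0.33). For siHAND2 with siCtrl the correlations ran from −0.074 to 0.423, and each comparison with the combined group held a negative one. Numbers that paired siMYCN with both groups would also pair siHAND2 with siCtrl. Whether the numbers pair the samples is therefore not settled. Running numbers in the column names also rise with the replicate number, and the labels do not say what they mean.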

Additional observations from a re-analysis of the deposited data

Results flagged for a closer look

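HSPA5 moved in opposite directions with MYCN knockdown depending on whether HAND2 was also knocked down: every siMYCN sample lay above the siCtrl mean, by 6.38 CPM on average, and every combined sample lay below the siHAND2 mean, by −37.5 CPM on average. After rescaling these averages were 6.66 and −24.2 CPM, again with 3 of 3 samples above and 3 of 3 below. The difference between the effects was not tested, and the rise in siMYCN was itself not called (limma adjusted p 0.689).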

How the results depend on the processing

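The calls for ATF3, PPP1R15A and CHAC1 in the combined group against each other group, and for PPP1R15A in each single knockdown, held in every alternative run; CHAC1 is absent from the filter at a mean of 5 CPM. Of the 9 tested members 3 were called after either single knockdown and 5 in the combined group against siCtrl, 4 in each comparison of the combined group with a single knockdown, and 1 between the single knockdowns.

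With no filter on low genes 1 member was called in siMYCN and 0 between the single knockdowns, and 21 pathway list genes in siMYCN and 29 in siHAND2, in place of 37 and 44; more genes are then tested. With only the compared groups fitted, siHAND2 had 5 members, siMYCN 64 pathway list genes and 6963 genes in all (4273 in the fit of all groups), and siMYCN against siHAND2 6730 genes (4443). Median-ratio rescaling gave 5 members in siHAND2, 8 and 7 in the combined group against siMYCN and siHAND2, 2 between the single knockdowns, and 56 pathway list genes in siMYCN. Rescaling to the listed genes gave 5 members in siHAND2, 9 and 8 in the combined group against the single knockdowns, and 57 pathway list genes in siMYCN.

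With the replicate number as a block, siHAND2 had 5 members (ATF3 and CHAC1 added) and the combined group against siHAND2 6. Outside siMYCN with siCtrl and siMYCN with siHAND2, correlations of same-numbered samples ran from −0.19 to 0.42. For siMYCN against siCtrl and against siHAND2, the block left the members' counts at 3 and 1 as deposited. With median-ratio rescaling it gave 4 in siMYCN (CHAC1 added, limma adjusted p 0.0268) and 2 between the single knockdowns. The replicate block with median-ratio rescaling gave 5, 8, 7 and 2 members, in the order given for that rescaling, with 59 pathway list genes and 6480 genes in siMYCN.

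Combinations chosen after seeing the data joined rescaling with leaving out a combined sample. Without combined replicate 1 they gave 6 members in siHAND2, 8 in the combined group against siMYCN, 2 between the single knockdowns, and 60 pathway list genes and 6434 genes in siMYCN. Without combined replicate 3 the values were 5, 8, 3, 61 and 6501, with 7 members against siHAND2. Leaving out 1 sample at a time without rescaling gave 2 to 3 members for siMYCN, 2 to 5 for siHAND2, 5 to 7 for the combined group, 4 to 7 and 4 to 6 against the single knockdowns, and 24 to 50 pathway list genes in siMYCN. For all genes the counts ran from 3202 to 5756 in siMYCN and from 3261 to 6082 between the single knockdowns.

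Signs turned only for differences near 0 or moved by scale. ASNS became 0.0726 in siHAND2 with median-ratio rescaling and with the block added, and 0.0454 with rescaling to the listed genes. In the combined group against siCtrl, siMYCN and siHAND2 it became 0.2275, 0.3302 and 0.155 with median-ratio rescaling (0.2156, 0.3183 and 0.143 without combined replicate 1, and 0.2407, 0.3434 and 0.1682 without replicate 3), and 0.2179, 0.2689 and 0.1726 with rescaling to the listed genes. HSPA5 in the combined group was 0.0033 when rescaled without combined replicate 1. With 1 sample left out, ASNS ran from −0.132 to 0.1111 against siMYCN and from −0.1592 to 0.0839 against siHAND2. ATF4 ran from −0.1344 to 0.1651 and from −0.1409 to 0.1586 in the same comparisons. Against siCtrl, DDIT4 ran from −0.1518 to 0.1883 and TRIB3 from −0.0325 to 0.3467 in the combined group, and HSPA5 from −0.0679 to 0.1133 and SESN2 from −0.0136 to 0.1155 in siHAND2. SESN2 in the combined group against siHAND2 ran from −0.0458 to 0.3599. The causes of these shifts were not tested. At these depths 3 reads are at most 0.0949 CPM, and the lowest value of any member was 1.83 CPM.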
